A study of Caenorhabditis elegans with 2 samples.

Results

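Long intergenic non-coding RNA (lincRNA) genes of Caenorhabditis elegans were examined for peaks of HLH-26, which belongs to the REF-1 family of basic helix-loop-helix (bHLH) transcription factors. The members are all 194 genes that the Ensembl annotation of WBcel235 (the ce11 assembly) classes as lincRNA, out of 46890 annotated genes on the 6 nuclear chromosomes, and no measured value entered their choice. Each gene was taken with the 500 bp before its start, and a gene had a peak where a deposited peak overlapped that window by at least 1 bp. The study is a chromatin immunoprecipitation and sequencing (ChIP-seq) experiment on 2 biological replicates of whole young adult worms aged 66 hours, grown from starved L1 larvae. Strain RW12174 carries GFP fused to hlh-26 by a CRISPR insertion (allele st12174) together with an unc-119(+) copy between loxP sites, in the unc-119(tm4063) background, and both replicates carry all of these. An antibody against GFP was used. There is 1 group and no second genotype, age or treatment, and whole animals hold every tissue, so a site bound in few cells and a site bound weakly in many cannot be told apart.

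lincRNAs are transcribed from their own loci between protein-coding genes and have no long open reading frame. In the worm many are made at low levels and at particular stages, and few have a described role. Among the exceptions is lep-5, which acts with the LIN-28 timing pathway in the change from juvenile to adult form. bHLH proteins bind short hexamers, the E-box (CANNTG) being the commonest class, and proteins related to Hairy and Enhancer of split in flies also bind the N-box (CACNAG).

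The label "intergenic" held for most but not all members. The gene body of 68 of the 194 overlapped another annotated gene (piRNA genes left aside), and in 42 that other gene was protein-coding. With the upstream 500 bp included, 97 windows were free of any other gene. Gene length ran from 101 bp (linc-98) to 6035 bp (linc-136) with a median of 761 bp, 138 genes had more than 1 exon, and the median distance to the nearest protein-coding gene was 638 bp.

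Each list gives a peak 2 measures, a signal and an irreproducible discovery rate (IDR), which is low where a peak recurs. Every rank and rank percentile below orders the peaks of a list by signal, not by IDR, and the orders differ. The 3 ranked lists used were the series list made from both replicates (35301 peaks, 524 bp wide) and the own lists of replicate 1 (19393 peaks, 544 bp) and replicate 2 (24293 peaks, 496 bp). Most ranked peaks are far from the authors' threshold. The median IDR of the nuclear peaks in the series list was 72.5%, so a ranked peak is a candidate position and not a call. Peak lists hold no read counts, the depth behind a peak is unknown, and intervals below cover counting error over genes only.

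No lincRNA gene carried a peak that passed the authors' threshold. The count was 0 of 194 in the conservative list of the series (90 peaks, 76 of them nuclear), 0 in its other list (75 peaks, 60 nuclear), 0 in replicate 1 (21 peaks, 8 nuclear) and 0 in replicate 2 (27 peaks, 12 nuclear). Genes with such a peak were rare everywhere, at 0.45%, 0.368%, 0.0539% and 0.092% of the 31527 annotated nuclear genes other than piRNA genes in the same order of lists. Those shares lie within what a count of 0 allows, so the members cannot be set apart from other genes by it. With so few nuclear peaks, 0 of 194 genes leaves room for a share as high as 1.55% (3 genes of 194) or, as the upper end of the exact 95% interval, 1.88%. The member nearest to the threshold was linc-44, whose series peaks scored 598 (an IDR of 3.63%) and 599, where the lowest score in any thresholded list was 832. It was also the single member with a ranked series peak scoring 540 or more. Its 2 peaks were the only ones at that score among the 116 series peaks in member windows, beside 273 of all 35284 nuclear peaks. The share of all genes with such a peak was not counted. The next scores were 491 at linc-1 (IDR 6.56%) and 397 at linc-142 (11.0%).

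The sequence under the strongest peak is shown for linc-44, the member nearest to the threshold, for linc-48, where the summits of the replicates were 22 bp apart, and for linc-87 and linc-88, which hold the E-box CACGTG. Each run is 101 bases centred on the series peak's summit, on the plus strand of WBcel235 (RefSeq sequence), and capitals mark any match to the N-box CACNAG, to the E-box CACGTG, to the other CANNTG forms searched (the hexamer CATGTG and the hexamer CAGCTG), or to the related hexamer CACGCG and the related hexamer CATGCG, on either strand.
linc-44, chrII:5781975-5782075: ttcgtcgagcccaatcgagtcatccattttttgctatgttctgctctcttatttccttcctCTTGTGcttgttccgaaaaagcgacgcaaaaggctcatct
linc-48, chrX:17422222-17422322: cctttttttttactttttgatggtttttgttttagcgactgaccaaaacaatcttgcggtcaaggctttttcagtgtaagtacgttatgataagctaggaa
linc-87, chrIII:12150002-12150102: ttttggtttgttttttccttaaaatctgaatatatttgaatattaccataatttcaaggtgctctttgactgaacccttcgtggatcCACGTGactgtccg
linc-88, chrX:8753878-8753978: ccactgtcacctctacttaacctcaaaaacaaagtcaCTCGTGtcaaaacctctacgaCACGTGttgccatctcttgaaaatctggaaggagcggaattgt
The linc-44 run holds 1 N-box and no E-box, that of linc-48 no match to any of the 6 motifs, that of linc-87 an E-box near its edge, and that of linc-88 both an N-box and an E-box.

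At linc-44, a 193 bp gene of 1 exon on the minus strand of chromosome II (5781921 to 5782113), the 2 replicates placed their peaks differently. The series signal was 70.4 (rank 275 of 35301), with 31.6 in replicate 1 (rank 1714 of 19393) and 45.7 in replicate 2 (rank 82 of 24293). Replicate 1's summit and that of the strongest series peak lay 91 and 88 bp after the gene's start, inside linc-44. Replicate 2's summit lay upstream, at -133 bp from the start, within an unnamed tRNA gene (WBGene00022983, 5782212 to 5782282), and the summit of a second series peak (signal 49.97) lay at -155 bp, in the same tRNA gene. The ncRNA gene F10C1.16 covers that tRNA gene on the other strand, and a ChIP-seq peak has no strand that would assign it. The summits of the replicates were 224 bp apart. The map of the linc-44 region shows these intervals. Of the 65 members with a series peak, K07C10.8 was the other whose strongest peak lay within 200 bp of a tRNA, rRNA, snRNA or snoRNA gene (the snoRNA gene K07C10.2, rank 13283). That makes 2 of 65 (3.08%, exact 95% interval 0.375 to 10.7%), beside 2.60% of all nuclear ranked peaks.

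**Figure D1:**
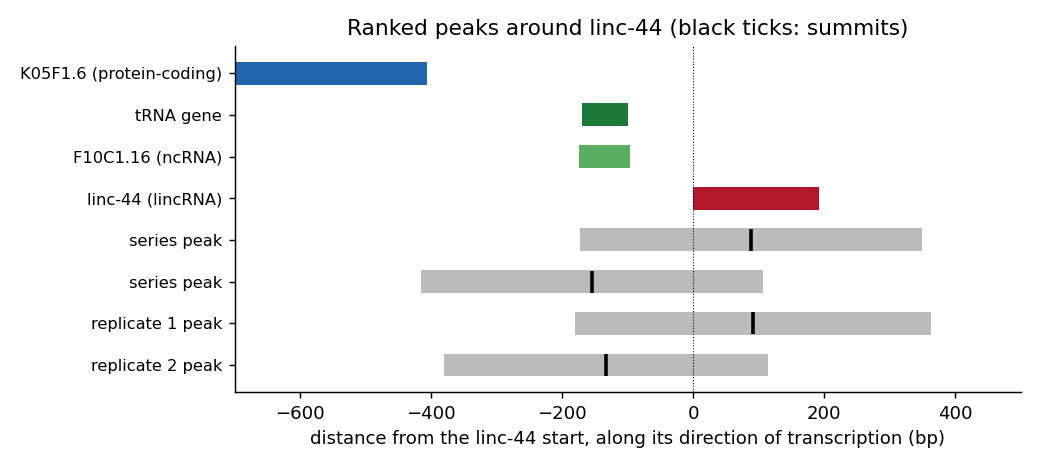
Genes and ranked peaks around linc-44, drawn to scale as distance in bp from its start along its direction of transcription (negative values are upstream). Bars are genes (coloured) and peaks (grey) and black ticks are peak summits. The replicate 1 summit lies 91 bp inside linc-44 and the replicate 2 summit at -133 bp, over the tRNA gene.

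Ranked peaks lay at a smaller share of lincRNA genes than of genes in general, and at a slightly larger share than of intergenic windows of the same length. In the series list 65 of 194 had one (33.5%, 26.9 to 40.6%), in replicate 1 45 (23.2%, 17.5 to 29.8%), in replicate 2 54 (27.8%, 21.7 to 34.7%), and 19 had one in all 3 lists (9.79%, 6.0 to 14.9%; all intervals are exact 95%). Over the 31527 annotated nuclear genes other than piRNA genes, whose windows are longer (median 1759 bp against 1261 bp), the shares were 51.1%, 36.7%, 41.8% and 22.7%. Per length, member windows held 29.6 series summits per 100 kb, beside 40.8 for those genes and 39.5 for protein-coding genes.

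The intergenic comparison used every position at which a window of the member's length fits between genes, in place of a random draw. It gave 27.1% in the series list, 16.7% in replicate 1, 20.4% in replicate 2 and 7.01% in all 3. The ratios of members to intergenic windows were 1.23, 1.39, 1.37 and 1.40. For the series list and for all 3 lists the intergenic share fell within the interval of the member share, and in each replicate alone it fell just under the lower end, here and for the windows of matched GC below. No test was run. Holding GC content within 2 percentage points of the member's as well, a comparison added after seeing the data, gave 28.5%, 17.3%, 21.2% and 6.97%, and ratios of 1.18, 1.34, 1.31 and 1.41. In genes, 33.5% against 27.1% is 65 members where 53 would be the intergenic share.

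**Figure D2:**
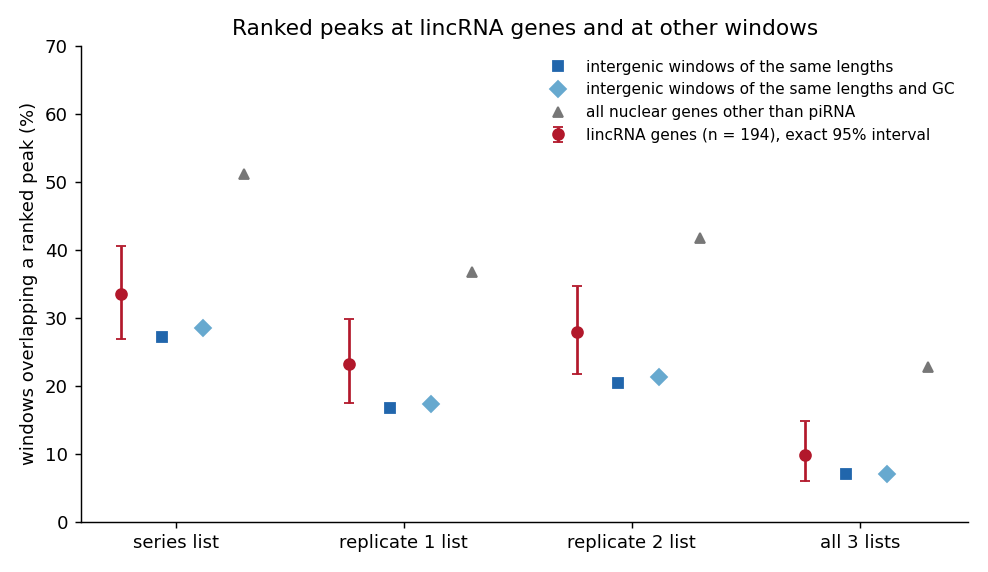
Share of windows that overlap a ranked peak, in percent, in the series list, in each replicate's own list and in all 3. Circles are the 194 lincRNA genes with exact 95% intervals, squares intergenic windows of the same lengths, diamonds those of the same lengths and GC, triangles all nuclear genes other than piRNA genes. In every column the circle lies above both intergenic markers and below the triangle.

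Longer genes had peaks more often, as did the intergenic windows. By window length the share was 24.6% in the shortest group (16 of 65), 29.7% in the middle group (19 of 64) and 46.2% in the longest (30 of 65), and the intergenic shares for the same lengths were 20.2%, 24.6% and 36.5%. The ratio stayed between 1.21 and 1.26. By chromosome the share ran from 30.4% on I (7 of 23) to 37.1% on V (13 of 35), with X at 36.8% (14 of 38). Each interval on these small counts spans more than the whole of that range. Intergenic windows of the same lengths on the same chromosome gave 27.6% on I, 26.5% on V and 30.3% on X. Whether the window touched another gene made little difference, at 32 of 97 without (33.0%, 23.8 to 43.3%) and 33 of 97 with (34.0%, 24.7 to 44.3%).

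Members with peaks were richer in GC. Members with a series peak had a median GC of 34.8% over the window and those without one 33.6%. The 19 genes in all 3 lists had 37.9% (quartiles 36.2 and 39.3%), and 16 of the 19 lay above the median of all members (34.2%). In the GC-richest group (35.6 to 52.1%) 31 of 65 genes had a series peak (47.7%, 35.1 to 60.5%), against 18 of 64 in the middle group (28.1%, 17.6 to 40.8%) and 16 of 65 in the poorest group (24.6%, 14.8 to 36.9%). Of the 19 genes in all 3 lists, 15 were in the richest group (23.1% of it, 13.5 to 35.2%), 2 in the middle (3.13%) and 2 in the poorest (3.08%). Intergenic windows of the same length and GC showed the same order, with series peaks at 16.8%, 29.95% and 38.8% from poorest to richest, and peaks in all 3 lists at 2.501%, 6.49% and 11.9%. In the middle group the members lay below those windows in both measures, and in the other groups above them. Windows matched on length alone gave 26.9%, 29.2% and 25.4% for these groups. The part of GC content in the members' own pattern was not tested.

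**Figure D3:**
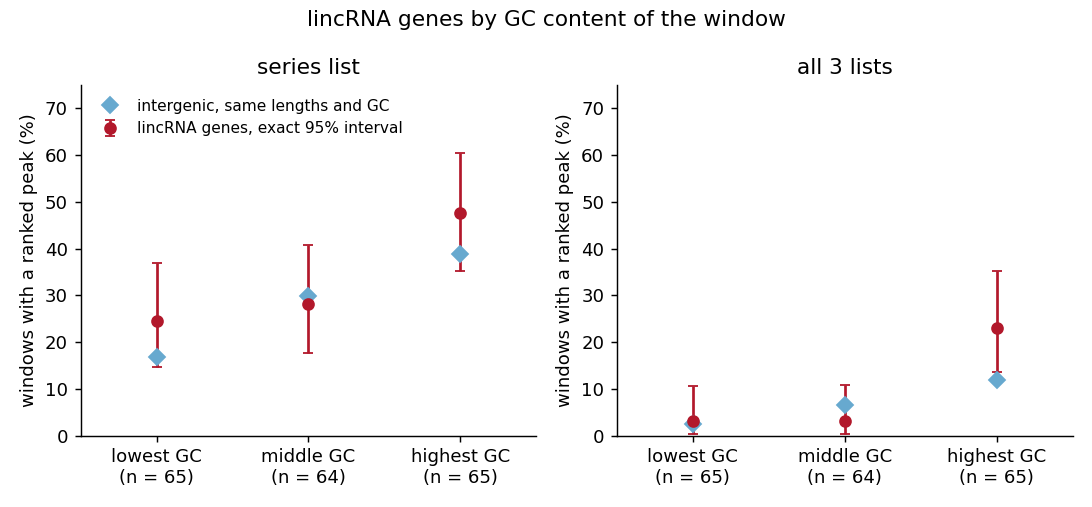
Share of lincRNA genes with a ranked peak, in percent, in 3 groups by the GC content of the gene plus 500 bp upstream, in the series list (left) and in all 3 lists (right). Circles carry exact 95% intervals, and diamonds are intergenic windows of the same length and GC. Both rise towards high GC, and 15 of the 19 genes in all 3 lists lie in the richest group.

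Recurrence between replicates was close to that of intergenic sequence. Of the 45 members with a replicate 1 peak, 19 also had one in replicate 2 (42.2%), and of the 54 with a replicate 2 peak the same 19 had one in replicate 1 (35.2%). For intergenic windows of the same lengths these shares were 44.2% and 36.3%, and for genes other than piRNA genes 64.6% and 56.8%. The 19 are 9.79% of the members, against 7.39% of intergenic windows and 23.7% of those genes with a peak in both replicates. All 19 had a series peak too. Of the remaining members, 98 had no peak in any list, 16 had one in the series list alone, 16 in replicate 1 alone and 15 in replicate 2 alone, 20 in the series list and replicate 2, and 10 in the series list and replicate 1. No matching shares of intergenic windows or of other genes are given for these counts, so they describe the members only.

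A peak in the window of both replicates did not always mean the same site. In 16 of the 19 genes the strongest series peak overlapped a peak of each replicate, and the replicates' summits were then a median of 191.5 bp apart (6 to 444 bp). They lay within 100 bp of each other in 6 genes and more than 200 bp apart in 8. The closest were at linc-152 (6 bp), linc-91 (13 bp), linc-146 (14 bp) and linc-48 (22 bp), and the farthest at linc-128 (444 bp) and linc-40 (408 bp). The 2 summits at linc-152 (15256615 and 15256609) lay upstream of the gene's window, which starts at 15256871. At linc-152 and linc-58 the replicate 2 peak used here lay outside the window. Its signal was 22.6 and 20.1, where the strongest replicate 2 peak in the window had 8.81 and 14.4. At F19G12.10, linc-84 and linc-12 the strongest series peak lacked an overlapping peak in 1 replicate. Over the 19 genes Spearman's rho of the replicates' signals was 0.577, given as a description. Overlap counts and summit distances of this kind are not given for other genes or for ranked peaks in general. Those above therefore cannot be called particular to lincRNA genes.

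The lincRNA peaks were of middling strength. Signal is the authors' own value and is compared within a list only. The strongest series peak of the 65 genes had a median signal of 31.0 (10.1 to 74.7) and a median rank percentile of 65, where 100 is the top of the list. Ordered by the IDR score instead, the best peak of each gene had a median percentile of 52.6. The strongest peak per gene stood at a median of 74.2 over the 16114 genes other than piRNA with a peak, whose windows are longer and so hold more peaks to choose from. Taking all peaks rather than the strongest, those in member windows had a median percentile of 46.1 (117 gene and peak pairs, 1 peak being shared by linc-110 and linc-133), beside 47.9 for the 8283 nuclear peaks with an intergenic summit. The genes in all 3 lists had a median percentile of 84.8 and the other 46 had 54.9. The series list is made from both replicates, so a peak in each replicate's own list favours a high series signal, and these values are a description only. The strongest member peaks in replicate 1 (45 genes) and replicate 2 (54 genes) had median percentiles of 66.1 and 65.5 in their own lists.

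The strongest member peak was at linc-1, a 204 bp gene on the plus strand of chromosome I (13652524 to 13652727) next to rpl-31, which encodes a ribosomal protein. Its signal was 74.7 in the series list (rank 187), 48.9 in replicate 1 (rank 108) and 25.5 in replicate 2 (rank 2647). The replicates' summits were 73 bp apart. The series summit, 271 bp after the start, lay past the gene's 3′ end, between the genes, and the peak reached into rpl-31, whose nearest start was 909 bp away. It had an E-box within 50 bp.

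At linc-91, a gene of 1 exon and 3257 bp on the plus strand of chromosome I (4699610 to 4702866) in the neighbourhood of chd-7, a chromodomain helicase gene, the series signal was 57.5 (rank 955). Replicate 1 gave 27.3 (rank 3409) and replicate 2 gave 24.2 (rank 3334). The summits of all 3 lists lay within 13 bp, in the exon 1898 bp after the start, and no other gene overlapped the peak. The IDR was 26.3%.

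linc-48 lies on the plus strand of X (17421887 to 17422340), 305 bp from osm-11, which encodes a secreted co-ligand of Notch. The series signal was 47.9 (rank 2639), with 23.9 in replicate 1 (rank 5430) and 22.4 in replicate 2 (rank 4584). The summit was in its exon, 385 bp after the start and at -690 bp from the start of osm-11, and the sequence there is printed above. The IDR was 37.0%.

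linc-142, also on X (12517114 to 12519034, minus strand), lies in scd-1, a protein-coding gene, so that its peak cannot be assigned to either. The series signal was 45.7 (rank 3288), with 33.0 in replicate 1 (rank 1361) and 28.4 in replicate 2 (rank 1553). The summit of the series peak lay 31 bp after the start of linc-142, and those of the replicates were 225 bp apart.

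On chromosome V linc-146 had its summit at -500 bp from the start (signals of 44.1, 22.4 and 15.4 in the series list, replicate 1 and replicate 2), with cul-5, a cullin gene, as the nearest protein-coding gene. The series summit of linc-92 was at -479 bp from its own start and at -251 bp from that of nhr-142, a nuclear hormone receptor gene that linc-92 overlaps (39.5, 31.5 and 25.5). linc-163 (36.9, 23.0 and 17.7) and linc-108 (33.5, 22.0 and 20.8), the latter 969 bp from acs-2, an acyl-CoA synthetase gene of fatty acid oxidation, had summits in an intron and in an exon. linc-128, whose nearest protein-coding gene is cmd-1 (calmodulin), had 26.8, 26.9 and 11.1. These 5 genes lay between ranks 3830 and 16713 of the series list.

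On chromosome III linc-129 held 6 peaks in the series list, 4 in replicate 1 and 3 in replicate 2, over 3983 bp. Its series count was the highest of any member, equalled by linc-90. Its strongest signals were 40.6, 26.8 and 30.3, and the series summit also lay in the ncRNA gene K11D9.8. linc-40 gave 41.6, 23.6 and 21.2 with the summit in an intron and inside the protein-coding gene Y82E9BL.18. On chromosome IV linc-114 gave 28.6, 21.45 and 21.2. On X, F19G12.10 gave 42.1, 22.7 and 15.4 and linc-103 gave 35.7, 14.5 and 20.6. On chromosome I linc-58 gave 43.2, 26.1 and 14.4, and linc-84 gave 34.3, 16.1 and 17.7. The series summit of linc-58 lay at -759 bp from its start, outside the window and in the ncRNA gene T22C1.15. That peak ended at 7952387, barely past the edge of the window at 7952385. On chromosome II linc-12 gave 21.1, 25.1 and 26.6 and linc-152 gave 18.04, 22.5 and 8.81, the lowest series signals of the 19. These values are the strongest in each gene's window. The replicate 2 peak that overlaps the strongest series peak had another signal at linc-152 (22.6), linc-58 (20.1) and linc-129 (28.1).

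**Figure D4:**
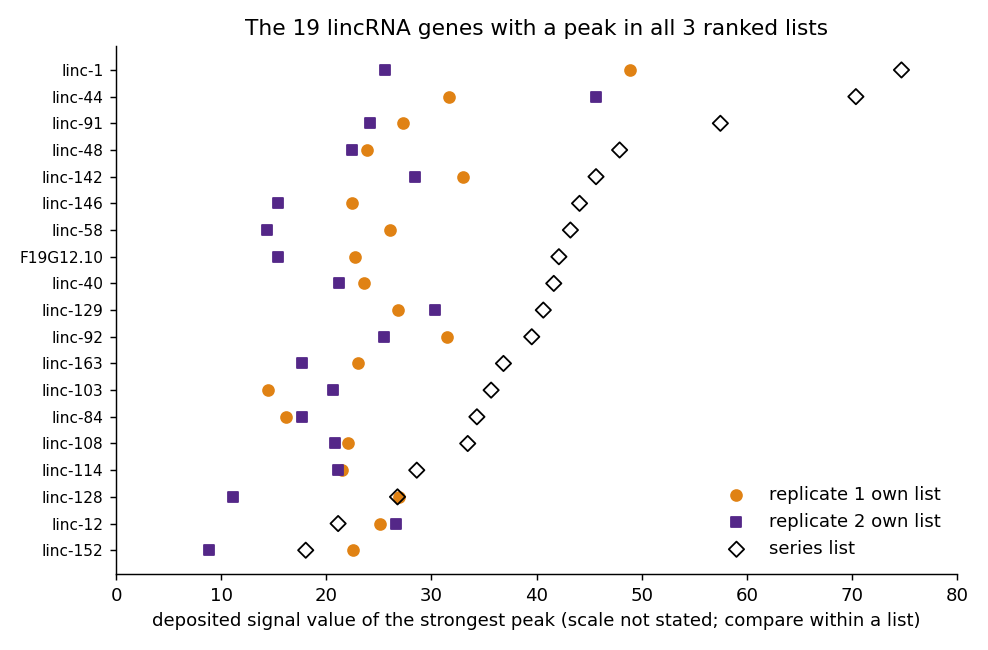
Deposited signal of the strongest peak at each of the 19 lincRNA genes with a peak in all 3 ranked lists, ordered by series signal. Circles are replicate 1's own list, squares replicate 2's and open diamonds the series list, and values are comparable within a list only. linc-1 leads in the series list and in replicate 1 (74.7 and 48.9), and linc-44 in replicate 2 (45.7).

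Some members of high series signal had no peak in a replicate's own ranked list. linc-87 on chromosome III (50.7, rank 1971) had none in replicate 1 and 16 in replicate 2 (rank 11863). linc-134 on chromosome IV (46.1, rank 3148) had 27.5 in replicate 1 (rank 3311) and none in replicate 2, and it lies 80 bp from cpg-18. linc-88 on X (45.5, rank 3367) had none in replicate 1 and 26.1 in replicate 2 (rank 2403). The series file gives for each peak the signals of the matching peaks in the lists it compared, and these were 27.0 and 14.8 at linc-87, 27.5 and 17.1 at linc-134 and 18.4 and 26.1 at linc-88, so that a peak missing from a replicate's own ranked list can still have one in a compared list. At the ends of the length range, linc-136 gave 27.6 in the series list, 14.5 in replicate 1 and none in replicate 2, and linc-98, which lies in C31G12.4, gave 22.4 in the series list alone.

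lep-5 (X, 12652591 to 12653520) had no peak in any of the 3 lists. The other long non-coding RNA genes looked up by name are classed as ncRNA. tts-1, an abundant ribosome-associated RNA of dauer larvae and long-lived worms, had 2, 2 and 3 peaks in the series list, replicate 1 and replicate 2, with signals of 40.9 (rank 5179), 29.4 (rank 2443) and 19.8 (rank 6984). rncs-1, an RNA induced by starvation that inhibits Dicer, had 4, 3 and 4 peaks, with signals of 34.5 (rank 9275), 18.4 (rank 10613) and 21.4 (rank 5408). Both are on X.

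Most of the strongest summits lay more than 100 bp from the start of the lincRNA. Of the 65 strongest series peaks, 15 had the summit in the upstream 500 bp (23.1%, 13.5 to 35.2%), where 22.7% of the bases of those windows and 29.0% of the bases of all member windows lie. Exons held 29 summits (44.6%, 32.3 to 57.5%) and introns 10 (15.4%, 7.63 to 26.5%). The other 11 (16.9%) lay outside the window, whose edge the peak overlapped. Exons hold 46.0% and introns 24.97% of the bases of all member windows, and their shares in windows with a peak are not given. The summit shares, upstream included, count the 11 outside summits in their total of 65, while the base shares cover window bases only. Each summit share is therefore too low to be set directly against its base share, and parity cannot be read from them. The summit was within 100 bp of the lincRNA's start in 7 genes, and the median offset was 271 bp after it (from -759 to 5552 bp). For that count of 7, and for the counts of 17 and 5 that follow, no share of all ranked peaks was computed. In 17 genes the summit lay inside another annotated gene. In 5 (7.69%) it lay from 500 bp before to 100 bp after a protein-coding start: at linc-84, linc-44, linc-90 (50 bp after the start of gei-4), linc-92 and linc-83 (at -124 bp from that of elt-4, a GATA factor gene), of which linc-90 and linc-83 were named after their values were seen.

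The bHLH motifs gave counts too small to set members apart from ranked peaks in general. Within 50 bp of the 65 strongest summits, on either strand, the N-box CACNAG was found at 7 (10.8%, 4.44 to 20.9%), beside 13.2% of all 35284 nuclear ranked peaks and 10.7% of those with an intergenic summit. The E-box CACGTG was found at 4 (6.15%, 1.70 to 15.01%), beside 2.42% and 2.11%. These were linc-1, linc-87, linc-88 and linc-162 on chromosome V (signal 24.7, rank 19021), the last named after its values were seen. Of the 4, linc-1 alone had a peak in both replicates' own lists. CAGCTG was found at 2 (3.08%, beside 2.76% and 1.91%), CATGCG at 1 (1.54%, beside 2.16% and 2.10%), and CACGCG and CATGTG at 0, which allows up to 5.52% by the exact 95% limit, beside 1.92% and 3.72% of all nuclear peaks. A match here is a string of letters and not a bound site.

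Among like classes of gene, the ratios to intergenic windows of lincRNA genes were nearest to those of pseudogenes. Antisense RNA genes, of nearly the same length (median window 1189 bp), had a series peak in 39 of 100 (39%, 29.4 to 49.3%) and a peak in all 3 lists in 18 (18%, 11.0 to 26.9%), or 1.53 and 2.86 times the intergenic share for their lengths. The 7764 genes of the general ncRNA class, much shorter (median window 640 bp), reached 39.9% and 12.6%, or 2.14 and 3.51 times. The 2128 pseudogenes had 37.0% and 11.6%, or 1.28 and 1.46 times, near the 1.23 and 1.40 of lincRNA genes. For all 3 lists the intervals of lincRNA genes (6.0 to 14.9%) and antisense RNA genes overlapped, and the difference between classes was not tested. Each class was matched to intergenic windows on length only. How far its windows overlap other genes was not matched, so the ratios are not strictly like for like.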

How the data were processed

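Per the text deposited with each sample, the files are narrowPeak lists on ce11, derived from the alignments of 1 replicate or of both. The authors deposited for each peak a score, a signal value whose scale is not stated, and the −log10 of the global IDR. The score is based on the global IDR and is at most 1000, a higher score going with a lower IDR. The lists come with peak caller, control and versions not given in the sources used here. The whole-series lists do not name the lists they compare. Of their compared intervals, 54.0% (first) and 56.6% (second) are identical to a ranked peak of replicate 1 and replicate 2.

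Gene models were those of Ensembl (release 115) and bases those of RefSeq, on WBcel235 in both cases. Intergenic positions lie outside genes of every biotype (33.3% of the nuclear genome). The intergenic share was taken at each member's own window length and then averaged over members. The GC comparison used every 10th position. Shares carry exact (Clopper-Pearson) 95% intervals. Overlap code was tested on simulated data against direct counting. Nothing was tested between conditions. The members follow an annotation class and no measured value, but this class, the lists and the motifs were chosen with earlier results of these data known. The genes named are those with a thresholded peak (none), the first 20 by series signal among those in all 3 lists (19 exist), the 3 strongest others, the longest, the shortest, lep-5, tts-1 and rncs-1. Neighbours and summit genes are named as context. Scripts ran in Python 3.11.15 with scipy 1.17.1, pandas 2.3.3 and numpy 2.4.6.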

Additional observations from a re-analysis of the deposited data

How the results depend on the processing

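The ratio of members to intergenic windows stayed above 1 under every alternative run on the members as a whole. It ran from 1.18 to 1.39 for the series list, 1.20 to 1.62 in replicate 1, 1.24 to 1.54 in replicate 2 and 1.32 to 1.60 in all 3 lists. The 1.39 came from replicate 1's own list in place of the series list, and 1.36 was the highest in the series list itself. By GC group, against windows of the same length and GC, the series ratio was 1.47, 0.939 and 1.23 from poorest to richest. The shares themselves fell with fewer peaks, for members and intergenic windows alike. Keeping the peaks above the median signal of each list gave 22.2%, 16.5%, 20.1% and 5.67%. The intergenic shares were then 17.8%, 10.2%, 13.0% and 3.55%, and the ratios 1.25, 1.62, 1.54 and 1.60. The gene body alone gave 16.5% in replicate 1, beside an intergenic 13.7%. Using 1 replicate's own list in place of the series list gave 23.2% to 27.8%. The count of 0 thresholded genes became 1 (linc-44) with a score of 540 or more, and the share of all genes at that score was not counted. The N-box share was 23.1% with 100 bp either side, where all nuclear peaks gave 24.4%, since a wider window holds more letters. Beyond fewer peaks or bases, the cause of these shifts was not tested. Windows of the same chromosome, and of the same GC, were added after seeing the data. No paired analysis was possible because there is 1 group. Without read counts, weak binding at lincRNA genes and none cannot be told apart.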
